A study of Mus musculus with 57 samples.

Results

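Genes that respond to type I interferon were measured in whole kidneys of 3 strains of mice that develop lupus. The list held 39 gene symbols, of which 37 had a row under that symbol in the expression tables, out of 16475 genes in all. The other two, Herc6 and Ifi27, stood in the tables under other symbols, were found by gene ID and are described apart. Each sample was 1 Affymetrix array. The NZB/W kidneys came from mice of 16 weeks that were prenephritic (n = 8), of 23 weeks without proteinuria (n = 11), of 23 weeks at the onset of proteinuria (n = 6) and of 36 weeks with nephritis and proteinuria (n = 10). The descriptions call both groups of 23 weeks prenephritic as well, the onset kidneys included. NZM2410 kidneys were nephritic (n = 5, from mice labelled sick) or prenephritic (n = 5, labelled young). NZW/BXSB kidneys were nephritic (n = 6, from proteinuric mice) or prenephritic (n = 6, non-proteinuric). No transgene, treatment or sex was named in the labels, and ages were stated for NZB/W only. The 36-week and 16-week kidneys differ in both disease and age, which cannot be told apart there, while onset and non-proteinuric kidneys share the age of 23 weeks. The arrays of the onset and non-proteinuric kidneys differed in their spiked controls, as described below. The NZM2410 groups, labelled young and sick, may also differ in age, so disease and age cannot be told apart in that strain either. The ages of the NZW/BXSB groups are not stated, so these may differ in age too. Of the 36-week kidneys, 1 label field read prenephritic and the description nephritic, and the description was followed. Nothing in the labels says that all samples came from separate mice, and the p-values cover sample-to-sample spread, which may in part be technical.

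Type I interferons are a family of secreted proteins, the many interferons alpha and interferon beta, that cells release when receptors for nucleic acids are triggered. They bind a receptor of the chains Ifnar1 and Ifnar2, whose kinases activate Stat2 among other factors. Stat2 joins Irf9 in a complex that enters the nucleus and binds interferon-stimulated response elements, which switches on antiviral genes and also Irf7, itself an inducer of interferon genes. In lupus the set of induced genes is known as the interferon signature, best described in blood cells.

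The members are given as log2 levels from robust multi-array averaging, so a difference of 1 is a doubling, and each was tested with limma across all genes where a call means a Benjamini-Hochberg adjusted p below 0.05. In 36-week nephritic NZB/W kidneys 31 of the 37 members rose over the 16-week kidneys and none fell, where 11% of all genes rose and 15.3% fell. In nephritic NZM2410 kidneys 29 of 37 rose over prenephritic kidneys and none fell, where 11.4% of all genes rose and 13.8% fell. In nephritic NZW/BXSB kidneys 25 of 37 rose and none fell, beside 11.4% of all genes that rose and 8.73% that fell. The median log2 fold change of the members was 0.60, 0.82 and 0.61 in these 3 comparisons, and that of all genes lay between -0.03 and -0.01. Of the 37 members, 23 rose in all 3 strains, 7 in 2 strains, 2 in 1 strain and 5 (Ifi44, Oas3, Cmpk2, Mx2 and Rsad2) in none.

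At the onset of proteinuria in 23-week NZB/W kidneys, 9 of 37 members rose over non-proteinuric kidneys of the same age and none fell, where 1.71% of all genes rose and 0.388% fell. The 9 were Ifit1, Ifitm3, Bst2, Ifih1, Parp14, Parp9, Dtx3l, Irf9 and Ifi35. In non-proteinuric 23-week kidneys none of the 37 was called against 16-week kidneys by limma, where 0.0182% of all genes rose and 0% fell. At an unadjusted p under 0.05 that comparison held 1 member, Pml, against 963 of all genes, and array weights called 2. In 36-week over onset kidneys 1 member rose, Isg20, where 0.571% of all genes rose and 1.75% fell, and 18 members had an unadjusted p under 0.05. Every 36-week sample lay above every 16-week sample in 6 members (Irf9, Parp12, Parp14, Isg20, Ifitm3 and Parp9), as in 1.38% of all genes. Likewise onset and non-proteinuric kidneys were apart in 8 members (Ifit1, Usp18, Parp14, Ifitm3, Rtp4, Ifih1, Parp9 and Ifi44), as in 0.546% of all genes. In NZM2410 the groups were apart in 19 members, as in 7.81% of all genes, and in NZW/BXSB in 6 (Irf9, Lgals3bp, Parp12, Isg20, Bst2 and Ifi35), as in 5.03%. The comparisons that include onset kidneys share those samples, and the 2 with 16-week kidneys share theirs.

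**Figure D1:**
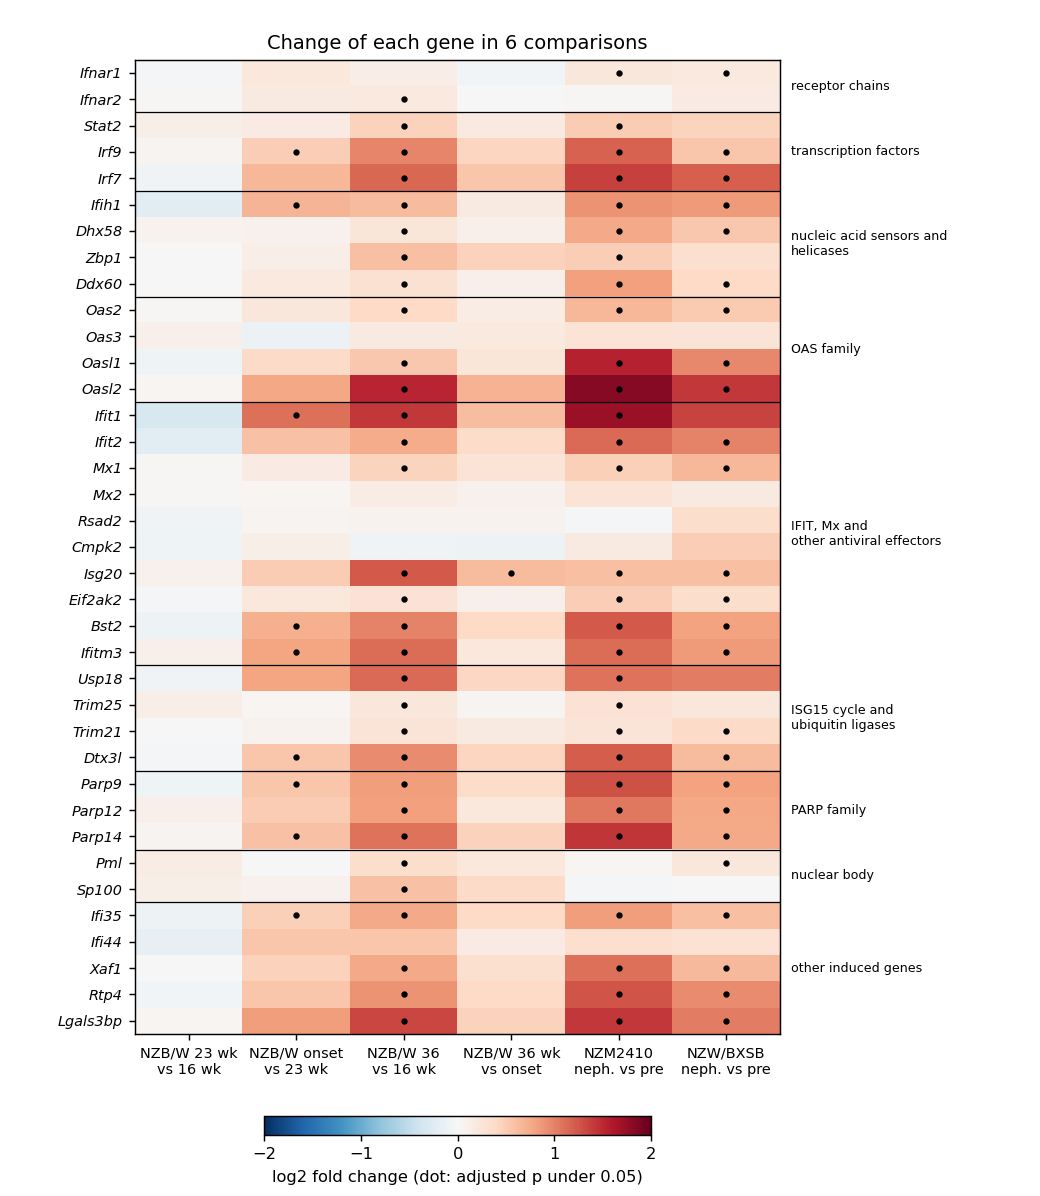
Log2 fold change (colour, red higher) of the 37 members (rows, grouped by role) in 6 comparisons (columns), with a dot where limma's adjusted p was under 0.05. Dots fill most rows in the 36-week, NZM2410 and NZW/BXSB columns (31, 29 and 25), 9 rows at onset, 1 row for 36 weeks over onset and none for 23 over 16 weeks.

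Promoters are printed for 6 members with the highest mean fold change over the 3 nephritic comparisons, among those with an entry. That of Ifnar1, a receptor chain that is not a classic induced gene, is printed too. They show where letters that match the response element occur. Sequences are RefSeq's for the mouse assembly GRCm38.p6, 250 bases before to 50 after the gene start, read 5′ to 3′ along the gene's strand. Capitals mark the core of the element, AANNGAAA or on the other strand TTTCNNTT, and a match to the longer paired form described after the sequences is in capitals over its whole length.
Ifit1: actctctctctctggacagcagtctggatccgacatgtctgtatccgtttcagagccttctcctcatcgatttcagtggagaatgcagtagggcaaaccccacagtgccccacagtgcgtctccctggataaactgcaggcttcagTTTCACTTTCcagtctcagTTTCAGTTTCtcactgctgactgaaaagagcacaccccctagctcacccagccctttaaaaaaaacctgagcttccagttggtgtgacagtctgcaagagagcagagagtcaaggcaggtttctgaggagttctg
Ifitm3: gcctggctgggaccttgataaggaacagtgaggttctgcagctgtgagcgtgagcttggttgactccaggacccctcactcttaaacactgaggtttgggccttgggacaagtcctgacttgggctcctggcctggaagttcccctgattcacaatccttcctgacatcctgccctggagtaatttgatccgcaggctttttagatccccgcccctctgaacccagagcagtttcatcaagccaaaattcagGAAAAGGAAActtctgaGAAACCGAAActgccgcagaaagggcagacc
Oasl1: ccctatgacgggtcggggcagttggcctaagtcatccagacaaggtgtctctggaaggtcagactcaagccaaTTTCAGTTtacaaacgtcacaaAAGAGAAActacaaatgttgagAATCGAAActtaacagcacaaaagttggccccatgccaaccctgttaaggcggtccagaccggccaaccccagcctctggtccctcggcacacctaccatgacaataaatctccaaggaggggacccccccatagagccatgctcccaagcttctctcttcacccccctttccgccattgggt
Lgals3bp: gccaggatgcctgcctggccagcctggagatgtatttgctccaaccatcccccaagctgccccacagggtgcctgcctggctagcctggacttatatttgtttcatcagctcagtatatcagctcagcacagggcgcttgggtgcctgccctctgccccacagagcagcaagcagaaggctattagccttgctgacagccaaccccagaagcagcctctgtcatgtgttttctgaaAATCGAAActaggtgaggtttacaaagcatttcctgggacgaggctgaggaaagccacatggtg
Oasl2: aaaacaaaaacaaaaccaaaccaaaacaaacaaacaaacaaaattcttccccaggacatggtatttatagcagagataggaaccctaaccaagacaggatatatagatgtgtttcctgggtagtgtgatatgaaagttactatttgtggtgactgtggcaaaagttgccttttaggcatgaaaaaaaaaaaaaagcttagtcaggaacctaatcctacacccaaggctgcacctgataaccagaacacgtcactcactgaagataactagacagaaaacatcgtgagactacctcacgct
Irf7: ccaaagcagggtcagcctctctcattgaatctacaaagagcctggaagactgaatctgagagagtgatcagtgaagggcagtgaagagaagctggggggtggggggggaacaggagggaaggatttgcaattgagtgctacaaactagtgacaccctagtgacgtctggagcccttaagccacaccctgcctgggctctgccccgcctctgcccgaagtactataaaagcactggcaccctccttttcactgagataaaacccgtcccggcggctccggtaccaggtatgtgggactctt
Ifnar1: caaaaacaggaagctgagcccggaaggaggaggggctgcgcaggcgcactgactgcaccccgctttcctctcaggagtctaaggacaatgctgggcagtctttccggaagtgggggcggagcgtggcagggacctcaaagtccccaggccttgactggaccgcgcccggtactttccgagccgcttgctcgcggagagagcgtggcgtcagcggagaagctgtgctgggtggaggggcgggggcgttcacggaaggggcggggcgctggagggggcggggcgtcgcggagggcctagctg

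The Ifit1 promoter lies at chr19:34640639-34640938 (plus strand), that of Ifitm3 at chr7:141010695-141010994 (minus strand), that of Oasl1 at chr5:114922990-114923289 (plus strand) and that of Lgals3bp at chr11:118401910-118402209 (minus strand). Those of Oasl2, Irf7 and Ifnar1 lie at chr5:114896684-114896983 (plus strand), chr7:141266375-141266674 (minus strand) and chr16:91484965-91485264 (plus strand). Ifit1 and Ifitm3 each held 2 matches to a tighter form, a pair of GAAA repeats with any 2 bases between them or the same on the other strand, which always contains the core. The first base of these matches lay 104 and 85 bases before the gene start in Ifit1 and 2 and 19 bases after it in Ifitm3. Oasl1 held 3 core matches and Lgals3bp 1, while these letters do not occur in the printed windows of Oasl2, Irf7 and Ifnar1. Entries existed for 28 of the 37 members, in 33 promoters, since a gene may have several starts. Of those 33, 21 held the core (63.6%), against 7857 of all 32851 promoters (23.9%). The paired form stood in 10 of the 33 (30.3%), against 1131 of all promoters (3.44%). The members with the paired form were Bst2, Ddx60, Eif2ak2, Ifih1, Ifit1, Ifitm3, Oas3, Rsad2, Stat2 and Trim21. The list was made of known interferon targets, so these shares describe it and test nothing, and a match is not a bound site. Nor does the lack of a match in so short a window show that a gene lacks the element.

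The receptor chains moved little. Ifnar1, the chain that carries the kinase Tyk2, had log2 levels of 8.95, 9.01, 8.85, 8.72 and 8.86 in the 5 nephritic NZM2410 kidneys, against 8.65, 8.68, 8.74, 8.70 and 8.54 in the 5 prenephritic ones. The groups overlapped only through the lowest nephritic and the highest prenephritic sample, and the log2 fold change was 0.22 ± 0.07 (SE, adjusted p = 0.0394). In NZW/BXSB the Ifnar1 level was 8.99 at lowest, 9.18 in the median and 9.32 at highest in nephritic kidneys, against 8.92, 8.95 and 9.07 in prenephritic kidneys, a log2 fold change of 0.19 ± 0.06 (adjusted p = 0.0375). Both calls of Ifnar1 were fragile. Without any 1 of 9 of the 10 NZM2410 samples, all but nephritic replicate 4, the adjusted p passed 0.05 and reached 0.0968 at most. In NZW/BXSB the same held without prenephritic replicate 1, 2, 3 or 6 or nephritic replicate 1, 2 or 6, with adjusted p up to 0.0844. In NZB/W Ifnar1 stood at 7.99, 8.35 and 8.82 at 36 weeks, against 8.07, 8.27 and 8.39 at 16 weeks, overlapping, with a difference of 0.13 ± 0.07 (adjusted p = 0.192).

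Ifnar2, the chain that docks Stat2, rose in 36-week over 16-week NZB/W kidneys by a log2 fold change of 0.19 ± 0.05 (adjusted p = 0.00576). Its levels were 8.32, 8.56 and 8.73 (lowest, median, highest) at 36 weeks, against 8.25, 8.33 and 8.42 at 16 weeks, and the groups overlapped. In NZM2410 its levels were 8.27, 8.61, 8.49, 8.46 and 8.28 in nephritic kidneys, against 8.40, 8.55, 8.35, 8.37 and 8.35 in prenephritic kidneys, a difference of 0.02 ± 0.08 (adjusted p = 0.907). In NZW/BXSB Ifnar2 stood at 8.75, 8.99 and 9.21 in nephritic kidneys, against 8.69, 8.82 and 8.97 in prenephritic kidneys, a difference of 0.16 ± 0.08 (adjusted p = 0.148). Both pairs of groups overlapped.

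Of the 3 transcription factors, all rose at 36 weeks and in NZM2410, 2 in NZW/BXSB and 1 at onset. Irf7, the factor that amplifies interferon production, had log2 levels of 7.18, 8.51 and 9.88 (lowest, median, highest) in 36-week kidneys, against 7.06, 7.33 and 7.89 in 16-week kidneys. All but 1 of the 36-week samples lay above the 16-week mean, yet the groups overlapped through 36-week replicates 3 and 8, and the log2 fold change was 1.16 ± 0.22 (adjusted p = 0.00021). In NZM2410 the Irf7 levels were 9.55, 8.88, 9.19, 7.96 and 8.20 in nephritic kidneys, against 7.499, 7.38, 7.25, 7.43 and 7.38 in prenephritic kidneys. These groups did not overlap, and the log2 fold change was 1.37 ± 0.25 (adjusted p = 0.00206). In NZW/BXSB Irf7 stood at 8.56, 8.93 and 10.10 in nephritic kidneys, against 7.42, 7.81 and 8.70 in prenephritic kidneys, overlapping through prenephritic replicate 6, with a log2 fold change of 1.19 ± 0.27 (adjusted p = 0.00883). At onset Irf7 was at 7.38, 8.04 and 8.49, against 7.01, 7.23 and 7.56 in non-proteinuric kidneys, a difference of 0.67 ± 0.24 with an adjusted p of 0.122.

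Irf9, the DNA-binding part of the complex with Stat2, was the only one of the 3 factors called at onset. Its levels there were 7.65, 8.13 and 8.51 (lowest, median, highest), against 7.37, 7.61 and 7.79 in non-proteinuric kidneys. All 6 onset samples lay above the non-proteinuric mean, the groups overlapped, and the log2 fold change was 0.50 ± 0.14 (adjusted p = 0.0468). The onset call of Irf9 was fragile, lost in 18 of 28 alternatives, with adjusted p up to 0.211. Irf7, with a larger onset difference, was called there in 2 of 28 alternatives. At 36 weeks Irf9 stood at 8.04, 8.50 and 9.12, against 7.17, 7.52 and 7.98 at 16 weeks, with no overlap and a log2 fold change of 0.97 ± 0.13 (adjusted p = 2.86e-06). The nephritic NZM2410 kidneys had Irf9 levels of 9.51, 8.92, 9.22, 8.38 and 8.82, against 7.89, 7.96, 7.78, 7.75 and 7.57 in prenephritic kidneys, a log2 fold change of 1.18 ± 0.17 (adjusted p = 0.000661). In NZW/BXSB the nephritic samples, at 8.52 or more, also lay above every prenephritic one, at 8.38 or less, and Irf9 rose by 0.56 ± 0.11 (adjusted p = 0.00373).

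Stat2, a factor dedicated to type I and III signalling, moved less than Irf9. Its log2 fold change was 0.46 ± 0.13 in 36-week kidneys (adjusted p = 0.0102), 0.51 ± 0.13 in NZM2410 (adjusted p = 0.012) and 0.45 ± 0.16 in NZW/BXSB (adjusted p = 0.06), the last not called. Levels in nephritic NZM2410 kidneys were 7.31, 7.18, 7.29, 6.86 and 6.62, against 6.63, 6.68, 6.54, 6.45 and 6.40 in prenephritic kidneys, and the lowest nephritic sample fell inside the prenephritic range. In 36-week kidneys Stat2 ran over 6.14, 6.75 and 7.51, against 6.15, 6.23 and 6.51 at 16 weeks, so that 3 of 10 lay below the 16-week mean. In NZW/BXSB it stood at 7.06, 7.50 and 7.95 in nephritic kidneys, against 6.75, 7.02 and 7.33 in prenephritic kidneys, and at onset at 6.21, 6.62 and 6.70, against 6.23, 6.38 and 6.63 without proteinuria, overlapping in both. With only these 2 groups in the model the Stat2 call at 36 weeks was lost, as it was when title stems entered as random blocks, with adjusted p up to 0.0632.

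All 4 nucleic acid sensors and helicases of the list rose at 36 weeks and in NZM2410, and 3 of 4 in NZW/BXSB. Ifih1, the sensor of long double-stranded RNA also called MDA5, was also called at onset. Its log2 levels at onset were 8.34, 8.59 and 9.03 (lowest, median, highest), against 7.66, 7.99 and 8.23 in non-proteinuric kidneys, with no overlap and a log2 fold change of 0.68 ± 0.13 (adjusted p = 0.00612). In nephritic NZM2410 kidneys Ifih1 was at 9.79, 9.55, 9.32, 8.77 and 8.81, against 8.40, 8.45, 8.51, 8.44 and 7.97 in prenephritic kidneys, a log2 fold change of 0.89 ± 0.19 (adjusted p = 0.00458). It rose by 0.64 ± 0.12 at 36 weeks (adjusted p = 0.000212) and by 0.85 ± 0.17 in NZW/BXSB (adjusted p = 0.00421). Dhx58, or LGP2, a regulator of MDA5 and RIG-I, rose by 0.25 ± 0.08 at 36 weeks, 0.75 ± 0.20 in NZM2410 and 0.54 ± 0.14 in NZW/BXSB. Zbp1, a sensor of Z-form nucleic acid linked to cell death, rose by 0.60 ± 0.15 at 36 weeks and by 0.49 ± 0.15 in NZM2410, and its difference in NZW/BXSB was 0.32 ± 0.15 (adjusted p = 0.149). The helicase Ddx60 rose in all 3 strains, by 0.30 to 0.82. It is the 1 member that the authors' deposited table does not list as above their expression baseline in NZB/W and NZW/BXSB, with group means there of 4.44 to 4.99.

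In the OAS family, enzymes that make 2-5A, the activator of RNase L, or their relatives without that activity, the spread between members was wide. Oasl2 had the highest fold change of the 37 members in each of the 3 nephritic comparisons. Its log2 levels in nephritic NZM2410 kidneys were 10.03, 9.44, 9.41, 8.09 and 8.10, against 7.26, 7.52, 7.18, 6.98 and 7.05 in prenephritic kidneys. All 5 nephritic samples were above all prenephritic ones, replicates 1, 2 and 3 most, and the log2 fold change was 1.82 ± 0.33 (3.52-fold, adjusted p = 0.00202). At 36 weeks Oasl2 ran over 6.96, 8.27 and 9.70, against 6.49, 6.73 and 7.42 at 16 weeks, overlapping, with a log2 fold change of 1.53 ± 0.26 (2.89-fold, adjusted p = 5.25e-05). NZW/BXSB kidneys had 7.34, 8.68 and 9.59 when nephritic, against 6.58, 6.82 and 8.23 when prenephritic, a log2 fold change of 1.42 ± 0.37 (adjusted p = 0.0165). The onset difference of Oasl2 was 0.78 ± 0.27 with an adjusted p of 0.122, its levels there being 6.85, 7.63 and 8.19, against 6.31, 6.83 and 7.29 in non-proteinuric kidneys.

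Oasl1, whose gene also lies on chromosome 5, reached 9.002, 8.32, 8.51, 7.67 and 7.86 in nephritic NZM2410 kidneys, against 6.27, 6.76, 6.75, 6.80 and 7.09 in prenephritic kidneys. That is a log2 fold change of 1.54 ± 0.23 with no overlap (adjusted p = 0.000667), beside 0.96 ± 0.27 in NZW/BXSB and 0.54 ± 0.14 at 36 weeks. Oas2 rose in all 3 nephritic comparisons by 0.40 to 0.66. Oas3 passed in none, with differences of 0.18, 0.27 and 0.25 at 36 weeks, in NZM2410 and in NZW/BXSB. How the arrays tell near-identical family members apart is not given in the sources used here.

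Among the 10 antiviral effectors, 7 rose at 36 weeks, 7 in NZM2410, 6 in NZW/BXSB and 3 at onset. Ifit1, which binds viral RNA caps, changed most at onset. Its log2 levels there were 6.72, 7.43 and 8.30 (lowest, median, highest), against 6.03, 6.38 and 6.69 in non-proteinuric kidneys. The lowest onset sample lay just above the highest non-proteinuric one, and the log2 fold change was 1.11 ± 0.29 (adjusted p = 0.0391). This call was lost in 14 of 28 alternatives, with adjusted p up to 0.153. At 36 weeks Ifit1 ran over 6.84, 8.05 and 9.50, against 6.40, 6.57 and 7.51 at 16 weeks, and the groups overlapped only through the highest 16-week sample. Its log2 fold change was 1.41 ± 0.28 (2.66-fold, adjusted p = 0.00028). Nephritic NZM2410 kidneys had Ifit1 levels of 9.27, 8.68, 8.67, 7.82 and 7.56, against 6.66, 6.93, 6.74, 6.60 and 6.43 in prenephritic kidneys, a log2 fold change of 1.73 ± 0.27 (adjusted p = 0.000899). In NZW/BXSB the difference was nearly as large, 1.35 ± 0.51, but levels of 6.58, 8.12 and 10.003 in nephritic kidneys, against 6.25, 6.65 and 8.20 in prenephritic kidneys, overlapped widely and Ifit1 was not called (adjusted p = 0.0808).

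Ifitm3, a membrane protein that blocks virus entry, rose in all 3 strains and at onset. At onset it stood at 10.71, 11.22 and 11.74, against 10.27, 10.45 and 10.68 in non-proteinuric kidneys, without overlap, a log2 fold change of 0.79 ± 0.13 (adjusted p = 0.00213). At 36 weeks Ifitm3 stood at 11.07, 11.43 and 12.04, against 10.08, 10.28 and 10.72 at 16 weeks, again without overlap, with 1.11 ± 0.12 (adjusted p = 2.52e-07). In NZM2410 it rose by 1.12 ± 0.15 (adjusted p = 0.00042) and in NZW/BXSB by 0.85 ± 0.20 (adjusted p = 0.00978).

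Bst2, or tetherin, which holds budding viruses at the cell surface and marks plasmacytoid dendritic cells in mice, stood at 8.15, 8.76 and 9.11 at onset, against 7.69, 7.94 and 8.19 in non-proteinuric kidneys, overlapping slightly, with a log2 fold change of 0.71 ± 0.18 (adjusted p = 0.0288). It rose by 0.995 ± 0.17 at 36 weeks, 1.23 ± 0.17 in NZM2410 and 0.81 ± 0.19 in NZW/BXSB. Isg20, an exonuclease for single-stranded RNA, was the only member called higher at 36 weeks than at onset. Its levels were 6.70, 7.16 and 8.13 at 36 weeks, against 6.01, 6.65 and 7.32 at onset, overlapping, with a log2 fold change of 0.63 ± 0.17 (adjusted p = 0.0468). Against 16 weeks, where Isg20 lay at 5.82, 5.98 and 6.29, the 36-week fold change was 1.23 ± 0.16 with no overlap (adjusted p = 2.51e-06). In NZM2410 Isg20 stood at 7.26, 6.70, 6.65, 6.65 and 6.80 in nephritic kidneys, against 6.02, 6.04, 6.31, 6.03 and 6.67 in prenephritic kidneys, a log2 fold change of 0.60 ± 0.15 (adjusted p = 0.0115).

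Ifit2, the relative of Ifit1, rose by 0.74 ± 0.16 at 36 weeks, 1.13 ± 0.26 in NZM2410 and 0.99 ± 0.27 in NZW/BXSB (adjusted p = 0.0223). In NZW/BXSB its levels were 8.23, 9.15 and 10.15 in nephritic kidneys, against 7.71, 8.12 and 8.80 in prenephritic kidneys, with overlap. Mx1, a GTPase against influenza virus in mice, and Eif2ak2, the kinase PKR that stops translation, rose in all 3 strains by 0.45 to 0.67 and 0.28 to 0.49. The effectors Mx2, Rsad2 and Cmpk2 were called in no comparison. Rsad2, or viperin, stood at 8.79, 8.73, 8.83, 8.90 and 8.50 in nephritic NZM2410 kidneys, against 8.80, 8.9997, 8.90, 8.67 and 8.47 in prenephritic kidneys. Its log2 differences were 0.06 ± 0.16 at 36 weeks, -0.02 ± 0.11 in NZM2410 and 0.36 ± 0.33 in NZW/BXSB. Cmpk2, a nucleotide kinase next to Rsad2 in the genome, had differences of -0.07 ± 0.10, 0.18 ± 0.10 and 0.49 ± 0.23. Both Rsad2 and Cmpk2 are classic targets, and the promoter entry of Rsad2 holds a match to the paired form.

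**Figure D2:**
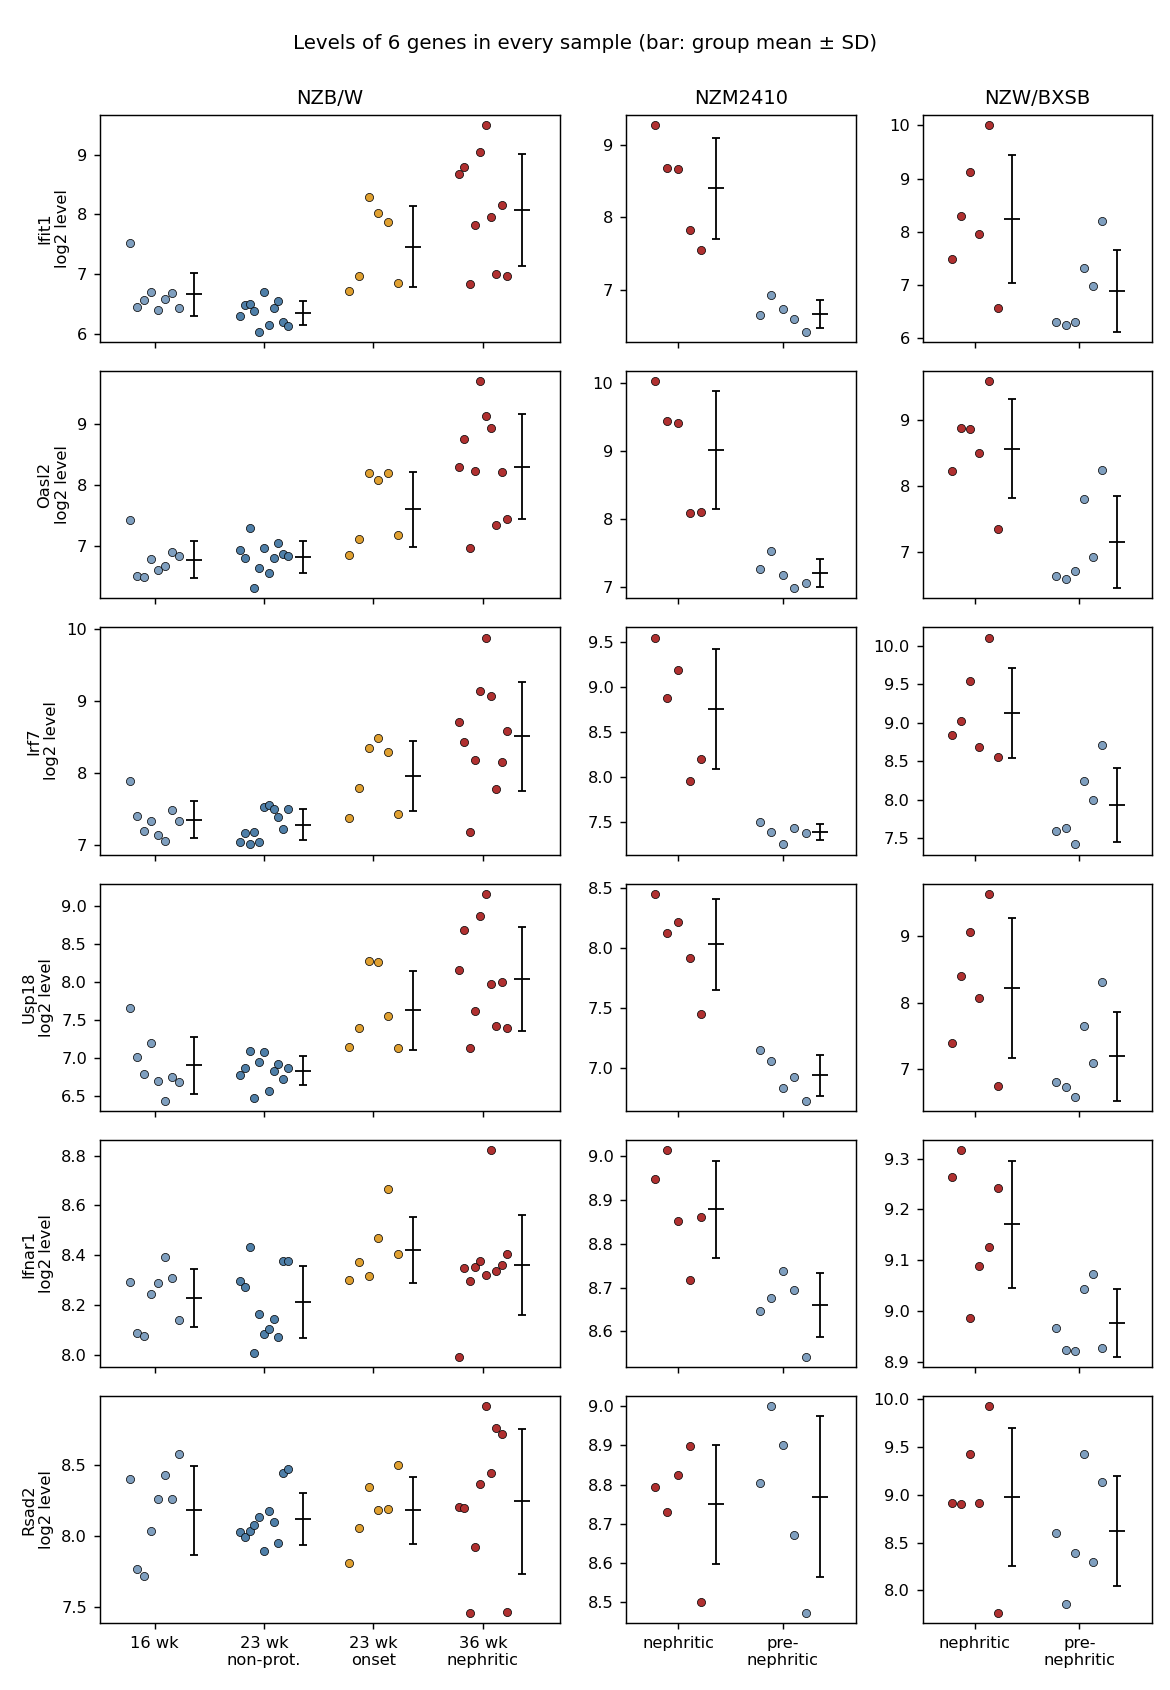
Log2 level of 6 members (rows) in every sample (points) of the 8 groups, with the group mean ± SD as a bar beside the points, and 1 column of panels per strain. Ifit1, Oasl2, Irf7 and Usp18 are high in most nephritic kidneys with a wide spread, while the Ifnar1 means of the 3 nephritic comparisons differ by 0.13 to 0.22 and Rsad2 shows no separation.

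Usp18, the protease that removes ISG15 and blocks the receptor, rose by 1.14 ± 0.21 at 36 weeks (adjusted p = 0.000185). Its levels were 7.14, 7.99 and 9.16 at 36 weeks, against 6.44, 6.77 and 7.65 at 16 weeks, and overlapped. In NZM2410 Usp18 was at 8.45, 8.12, 8.21, 7.91 and 7.45 in nephritic kidneys, against 7.15, 7.06, 6.84, 6.93 and 6.73 in prenephritic kidneys, without overlap, a log2 fold change of 1.09 ± 0.16 (adjusted p = 0.000655). At onset its levels of 7.13, 7.47 and 8.27, against 6.48, 6.86 and 7.10 in non-proteinuric kidneys, did not overlap either, but the adjusted p was 0.0569. NZW/BXSB kidneys ran over 6.75, 8.24 and 9.64 when nephritic, against 6.58, 6.95 and 8.32 when prenephritic, a difference of 1.03 ± 0.45 that was not called (adjusted p = 0.122).

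Of the ubiquitin ligases, Dtx3l, the partner of Parp9, rose by 0.94 ± 0.13 at 36 weeks, 0.55 ± 0.14 at onset, 1.21 ± 0.22 in NZM2410 and 0.63 ± 0.18 in NZW/BXSB. Trim21, an intracellular antibody receptor and the lupus autoantigen Ro52, rose by 0.27 ± 0.07 at 36 weeks, 0.25 ± 0.08 in NZM2410 and 0.38 ± 0.12 in NZW/BXSB. Trim25, which ubiquitinates RIG-I, rose by 0.22 ± 0.07 and 0.29 ± 0.10 in the first 2 of these comparisons. Its difference in NZW/BXSB was 0.23 ± 0.08 (adjusted p = 0.0543).

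The 3 PARP family members, ADP-ribosyltransferases or inactive relatives, rose in every nephritic comparison. Parp14 stood at 9.75, 9.32, 9.37, 8.41 and 8.60 in nephritic NZM2410 kidneys, against 7.73, 7.77, 7.70, 7.57 and 7.56 in prenephritic kidneys, a log2 fold change of 1.42 ± 0.22 (adjusted p = 0.000759). At 36 weeks it ran over 7.87, 8.47 and 9.39, against 7.13, 7.42 and 7.65 at 16 weeks, and at onset over 7.67, 7.94 and 8.65, against 7.26, 7.41 and 7.63 in non-proteinuric kidneys. Neither pair overlapped, and the fold changes of Parp14 were 1.09 ± 0.15 and 0.59 ± 0.16. Parp9 rose by 0.84 ± 0.14 at 36 weeks, 0.56 ± 0.15 at onset, 1.27 ± 0.21 in NZM2410 and 0.80 ± 0.17 in NZW/BXSB. Parp12 rose by 0.82 ± 0.14, 1.06 ± 0.18 and 0.78 ± 0.13 in the 3 nephritic comparisons, with an adjusted p of 0.0656 at onset.

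Pml and Sp100 are both scaffolds of the PML nuclear body. Sp100 rose by 0.59 ± 0.13 at 36 weeks (adjusted p = 0.000683), with levels of 6.17, 6.89 and 7.62 (lowest, median, highest), against 5.91, 6.33 and 6.47 at 16 weeks. In NZM2410 its levels were 6.53, 6.81, 6.53, 7.12 and 6.25 in nephritic kidneys, against 6.61, 6.83, 6.72, 6.51 and 6.64 in prenephritic kidneys, a difference of -0.02 ± 0.14. In NZW/BXSB the Sp100 difference was 0.01 ± 0.11. Pml rose by 0.35 ± 0.07 at 36 weeks and by 0.23 ± 0.07 in NZW/BXSB, and differed by 0.04 ± 0.07 in NZM2410.

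Of the other induced genes, Lgals3bp, a secreted glycoprotein that binds galectins, had among the largest changes. Nephritic NZM2410 kidneys had log2 levels of 11.38, 11.04, 11.24, 10.26 and 10.37, against 9.54, 9.67, 9.33, 9.26 and 9.43 in prenephritic kidneys, a log2 fold change of 1.41 ± 0.20 (adjusted p = 0.000575). In NZW/BXSB the levels of 10.62, 11.22 and 11.62 in nephritic kidneys lay just above those of 9.60, 10.07 and 10.59 in prenephritic kidneys, a log2 fold change of 1.02 ± 0.20 (adjusted p = 0.00429). At 36 weeks Lgals3bp ran over 9.59, 10.71 and 11.61, against 8.76, 9.21 and 10.39 at 16 weeks, with 1.34 ± 0.24 (adjusted p = 0.000119). Rtp4, a chaperone of receptors, rose by 0.90 to 1.26, Xaf1, which counters the apoptosis inhibitor XIAP, by 0.65 to 1.11, and Ifi35 by 0.61 to 0.83 in the 3 nephritic comparisons. Ifi44 was called in none, with differences of 0.55 ± 0.24, 0.34 ± 0.30 and 0.28 ± 0.30. Under their current symbols, Herc6, the mouse ligase for ISG15, rose by 0.44 ± 0.10, 0.87 ± 0.19 and 0.46 ± 0.15 at 36 weeks, in NZM2410 and in NZW/BXSB, and Ifi27 by 0.72 ± 0.20, 1.05 ± 0.16 and 0.75 ± 0.16. With both included the members that rose were 33, 31 and 27 of 39.

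The genes for the interferons themselves gave no call. Of the type I ligands 6 were measured (Ifnb1, Ifna4, Ifna5, Ifna9, Ifna11 and Ifnab), and limma called 0 of them in all 6 comparisons. At an unadjusted p under 0.05 there was 1 at 36 weeks, 1 at onset, 1 for 36 weeks over onset and 0 in the others. Their mean log2 level was low, from 5.01 to 5.26 over the 36-week samples, against 4.90 to 5.26 over the 16-week samples, and from 4.36 to 4.49 in nephritic, against 4.34 to 4.63 in prenephritic, NZM2410 kidneys. Ifnb1 differed by 0.05 ± 0.07 at 36 weeks, 0.02 ± 0.08 in NZM2410 and -0.16 ± 0.09 in NZW/BXSB. At levels this low a small change may go unseen on these arrays.

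Other genes of the pathway moved with the members. Of 18 genes for interferon signalling and induction, 12 rose at 36 weeks, 10 in NZM2410 and 9 in NZW/BXSB, and none was called by limma at onset, where 7 had an unadjusted p under 0.05. Sting1, the adaptor of the DNA sensor cGAS, rose by 1.06 ± 0.16, 1.68 ± 0.18 and 0.89 ± 0.13. Ikbke, a kinase that activates Irf3 and Irf7, rose by 0.74 ± 0.13, 0.69 ± 0.14 and 0.65 ± 0.10. Unc93b1, which delivers nucleic acid-sensing Toll-like receptors, rose by 0.81 ± 0.13, 0.63 ± 0.13 and 0.36 ± 0.09. Tlr7, the receptor for single-stranded RNA, rose by 0.55 ± 0.11, 0.54 ± 0.11 and 0.67 ± 0.15. Of 11 genes that restrain the response, 5, 4 and 5 rose, with Socs3, an inhibitor of cytokine receptors in general, highest at 2.23 ± 0.30, 2.86 ± 0.22 and 1.47 ± 0.23. Samhd1, which degrades deoxynucleotides, rose by 0.69 ± 0.12, 0.41 ± 0.10 and 0.44 ± 0.09, and Trex1, which degrades cytosolic DNA, by 0.42 ± 0.09, 0.29 ± 0.09 and 0.41 ± 0.08. Socs3 was also the only one of these called at onset (1.17 ± 0.32), and Adar, the RNA-editing enzyme, the only one called for 36 weeks over onset (0.32 ± 0.09).

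Of 14 other interferon-induced genes, 9 rose at 36 weeks, 10 in NZM2410, 7 in NZW/BXSB and 3 at onset. Ly6e, a surface protein that restricts coronaviruses, rose by 1.37 ± 0.20, 2.10 ± 0.23 and 1.32 ± 0.17, and Cxcl10, a T-cell chemokine, by 1.08 ± 0.23 and 2.13 ± 0.16 in the first 2 comparisons. Ifitm2, a relative of Ifitm3, rose by 0.95 ± 0.14, 1.53 ± 0.17 and 0.89 ± 0.13, and Uba7, the enzyme that activates ISG15, by 0.75 ± 0.16, 0.78 ± 0.20 and 0.79 ± 0.18. The 3 called at onset were Cxcl10, Phf11d and Ifitm2. Against the direction of the list, Ifi44l fell by 0.24 on the log2 scale in NZM2410 and Slfn5 fell by 0.46 in NZW/BXSB. Genes usually tied to interferon gamma rose as well, 9, 9 and 8 of 11, and Ubd, a ubiquitin-like modifier, had 1.98 ± 0.33, 3.45 ± 0.67 and 1.60 ± 0.29. The GTPases Gbp2 and Iigp1, which act on the vacuoles of intracellular microbes, rose by 1.29 to 2.29 and by 1.41 to 2.07. Of those 11, Ubd and Cxcl9 were also higher at 36 weeks than at onset. Many genes of the list respond to both interferon types, so these levels cannot tell the types apart.

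The mean log2 level of the 37 members was taken for each sample as a score, which is described here and not tested. In NZB/W it averaged 7.23 ± 0.13 at 16 weeks (SD, n = 8), 7.22 ± 0.05 at 23 weeks without proteinuria (n = 11), 7.61 ± 0.24 at onset (n = 6) and 7.89 ± 0.36 at 36 weeks (n = 10). The 11 non-proteinuric 23-week samples were the tightest group, between 7.15 and 7.30, and every onset sample lay above them. The onset samples were not alike, since replicates 3, 4 and 5 scored 7.84, 7.85 and 7.80, and replicates 1, 2 and 6 scored 7.32, 7.47 and 7.39. At 36 weeks replicate 3 scored 7.33, inside the range of the 16-week samples, and had the lowest level of 21 members, while replicates 5 and 6 scored 8.44 and 8.40 and had the highest level of 16 and 17 members. The highest 16-week score, 7.55, belonged to replicate 1, which had the highest level of 27 of the 37 members, with the other 7 samples between 7.12 and 7.24. Without that sample the score difference of non-proteinuric 23-week and 16-week kidneys was 0.03, against -0.01 with it.

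In NZM2410 the score was 8.59, 8.36, 8.36, 7.88 and 7.76 in nephritic kidneys, against 7.41, 7.49, 7.40, 7.34 and 7.35 in prenephritic kidneys, and the groups were apart. In NZW/BXSB it averaged 8.38 ± 0.37 in nephritic kidneys and 7.76 ± 0.29 in prenephritic kidneys (SD, n = 6 each), and they overlapped. Nephritic replicate 6, at 7.89, was lowest of its group in 28 members, and prenephritic replicates 4 and 6 scored 8.02 and 8.19. Score differences were 0.66 at 36 against 16 weeks, 0.39 at onset, -0.01 for non-proteinuric 23 against 16 weeks, 0.28 for 36 weeks against onset, 0.79 in NZM2410 and 0.62 in NZW/BXSB. The 3 tables may have been scaled separately, so scores are not compared between strains.

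**Figure D3:**
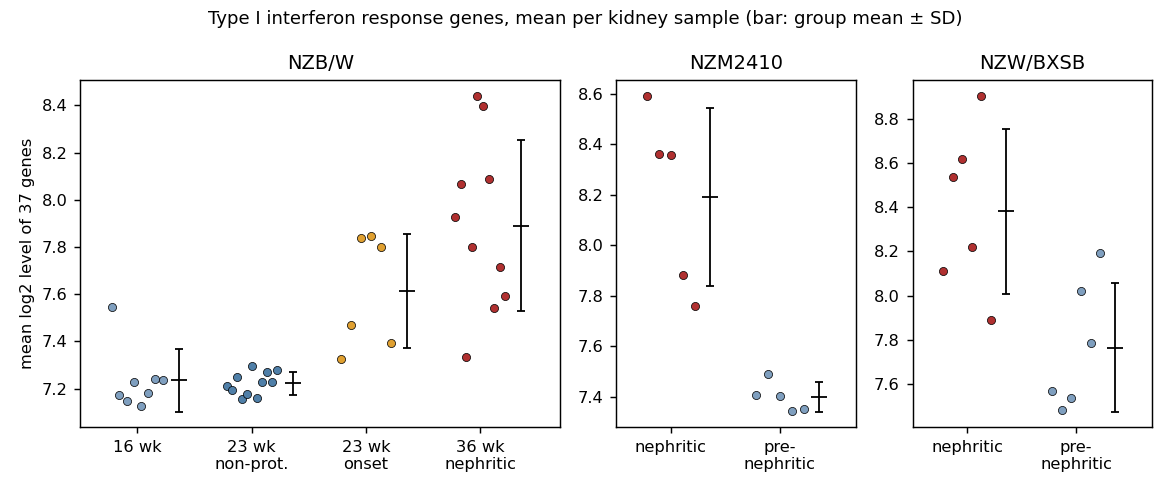
Mean log2 level of the 37 members in each sample (points) by group, with the group mean ± SD as a bar, in 1 panel per strain. Onset kidneys lie between 7.32 and 7.85, all above the non-proteinuric 23-week kidneys (7.15 to 7.30), and 36-week kidneys spread over 7.33 to 8.44.

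Some sample titles share a stem whose meaning is not given. Within such a stem, 2 onset kidneys averaged a score of 7.66, against 7.28 in 2 non-proteinuric kidneys, and in NZW/BXSB 2 pairs of 1 nephritic and 1 prenephritic kidney differed by 0.88 and 0.34. These are close to or on either side of the pooled differences and too few for a test. In NZW/BXSB, prenephritic replicates 1, 2, 3 and 5 carried a stem that no nephritic kidney had, and scored 7.57, 7.48, 7.54 and 7.79. Prenephritic replicates 4 and 6, whose stems also held a nephritic kidney, scored 8.02 and 8.19. Stem and disease thus largely coincide in that strain, and their parts in the score difference cannot be told apart. The titles of nephritic and prenephritic NZM2410 kidneys shared no stem. Nor did any nephritic NZB/W kidney share a stem with a prenephritic one. In those comparisons too, the parts of stem and disease cannot be told apart. Most onset kidneys also carried a stem that no non-proteinuric kidney of the same age had.

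Markers of mononuclear phagocytes moved with the members. All 10 markers measured, among them Adgre1, Cd68 and Csf1r, rose at 36 weeks, 8 at onset, 9 in NZM2410 and 10 in NZW/BXSB, and 0 were called by limma in 23-week non-proteinuric kidneys, where 1 had an unadjusted p under 0.05. Their mean log2 level ran from 7.82 to 9.40 at 36 weeks, against 7.03 to 7.48 at 16 weeks. At onset it ran from 7.74 to 9.08, against 7.11 to 7.60 without proteinuria, and the onset replicates 3, 4 and 5 had 8.65, 8.81 and 9.08. In NZM2410 it was 8.14 to 8.97 in nephritic, against 6.75 to 7.06 in prenephritic, kidneys, and in NZW/BXSB 8.90 to 9.56, against 7.44 to 8.51. The markers and the score did not always run together, since 36-week replicate 3 had a marker mean of 8.54 and a score of 7.33, and NZM2410 nephritic replicate 1 the highest score and a marker mean of 8.32. More cells of a type and more RNA per cell cannot be told apart in whole kidney, and the part of these cells in the members' rise was not tested.

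Markers of plasmacytoid dendritic cells, the best-known producers of interferon alpha, were also measured. Of 6 measured, 1 rose at 36 weeks (Spib, 0.56 ± 0.14), 0 were called by limma at onset or in NZW/BXSB, and 2 were lower in NZM2410 (Cox6a2 by -0.53 ± 0.12 and Tcf4 by -0.28 ± 0.07). Siglech, their most specific marker in mice, was at 5.44 in 36-week and 5.42 in 16-week kidneys. Of the T-cell markers 5 rose at 36 weeks, 3 in NZM2410 and 1 in NZW/BXSB. Of 6 plasma cell markers, among them the antibody genes Igkc and Igha, 6 rose at 36 weeks with a median log2 fold change of 3.45, 5 in NZM2410, and 0 were called by limma at onset or in NZW/BXSB, where 0 and 3 had an unadjusted p under 0.05. In non-proteinuric 23-week over 16-week kidneys, where no member was called, 3 of them rose (Jchain, Igkc and Igha). Their mean level was 10.83 in 16-week replicate 1, the sample with the highest score of its group, and 8.78 to 9.12 in the other 16-week samples. All 4 B-cell markers measured rose at 36 weeks and 1 in NZM2410. The part of these cells in the members' levels was not tested. Podocyte markers fell in NZM2410 (4 of 4) and in NZW/BXSB (1 of 4). Proximal tubule markers were high in every group, and 6 of 6 fell at 36 weeks, 5 in NZM2410 and 2 in NZW/BXSB.

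**Figure D4:**
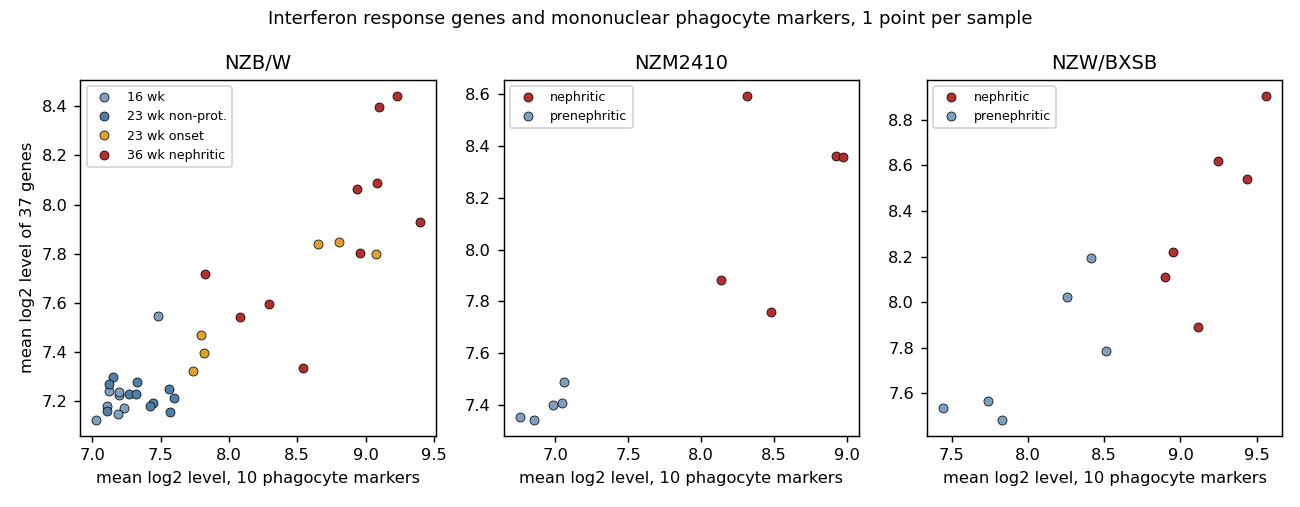
Mean log2 level of the 37 members (vertical axis) against the mean log2 level of 10 mononuclear phagocyte markers (horizontal axis), 1 point per sample and 1 panel per strain. Kidneys before nephritis sit at the lower left in NZB/W and NZM2410, onset and nephritic kidneys spread to the upper right, and NZW/BXSB prenephritic kidneys reach into the range between.

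Between strains, fold changes within each table were compared. The NZB/W groups differ in age and ages are not stated for the other strains, so strain and age cannot be told apart here. The NZB/W change between 36 and 16 weeks differed from the NZM2410 change in 0 of 37 members by the limma-based test, with 5 at an unadjusted p under 0.05, where 0.771% of all genes had a larger and 0.947% a smaller NZB/W change. Against NZW/BXSB it was larger for 2 members, beside 1.66% of all genes, and smaller for 0, beside 4.12%. Those 2 were Sp100, with a difference of fold changes of 0.59 ± 0.17 (adjusted p = 0.0339), and Isg20, with 0.63 ± 0.19 (adjusted p = 0.0401). NZM2410 and NZW/BXSB differed in 0 members, with 2 at an unadjusted p under 0.05, where 1.94% of all genes had a larger and 3.59% a smaller NZM2410 change. Ifit1 was called in NZM2410 and not in NZW/BXSB, so a call in one strain and not in another does not show that they differ. Oasl1 was called in all 3 strains. By the limma-based test its NZB/W change differed from that in NZM2410 by -0.998 ± 0.27 (adjusted p = 0.0564).

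The calls held to different degrees when single samples were left out. At 36 weeks 30 of the 31 kept their call in all 18 repeats and Dhx58 lost it without 16-week replicate 4 or 36-week replicate 5, 6 or 7. In NZM2410 24 of 29 did, and Ifnar1, Ddx60, Trim21, Trim25 and Zbp1 all lost it without prenephritic replicate 1, 2, 3 or 4 or nephritic replicate 2 or 3. In NZW/BXSB 14 of 25 did, and the count was 15, 14 or 16 without prenephritic replicate 1, 2 or 3 and 15 without nephritic replicate 2. Dtx3l, Eif2ak2, Ifit2, Ifnar1, Mx1, Oas2, Oasl1, Pml, Rtp4, Trim21 and Xaf1 all lost it without prenephritic replicate 2. At onset 2 of 9 did, Ifitm3 and Ifih1. There the count was 2 without onset replicate 3, 4 or 5, and 5, 5, 3, 4 and 5 without non-proteinuric replicate 2, 4, 7, 8 or 9. The call of Isg20 for 36 weeks over onset was lost in 9 of 16 repeats, without onset replicate 1, 2, 3, 4 or 6 or 36-week replicate 1, 4, 5 or 7.

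Technical measures differed between some groups of arrays. The spiked hybridization controls averaged a log2 level of 9.67 ± 0.19 in onset kidneys, with 9.49 the lowest, and 9.002 ± 0.19 in non-proteinuric 23-week kidneys, with 9.30 the highest (exact two-sided permutation p = 8.08e-05, adjusted over 24 tests to 0.00194). The ranges of these controls did not overlap, so array differences and onset cannot be told apart in that comparison. With these controls as a covariate, 4 members were called at onset, and Ifih1 was not among them (adjusted p = 0.113, the highest over its 28 alternatives, the lowest being 1.99e-05). The 3′ minus 5′ signal of Gapdh, a measure of RNA integrity, averaged 0.108 at onset and -0.0083 without proteinuria (exact permutation p = 0.0115, adjusted 0.0918), and with it as a covariate 2 were called. Onset replicate 5, among the high-scoring onset samples, had 0.463, and the other onset samples ran from -0.0265 to 0.094. The Gapdh signal also averaged 0.204 at 36 weeks and 0.0152 at 16 weeks (exact permutation p = 0.022, adjusted 0.132), and with it as a covariate 29 members were called there. The same signal of actin averaged 0.904 at onset and 0.805 without proteinuria (exact permutation p = 0.313, adjusted 0.623). At 36 weeks the actin signal averaged 0.849, against 0.862 at 16 weeks (exact permutation p = 0.895, adjusted 0.933). The hybridization controls averaged 9.002 in non-proteinuric 23-week and 9.43 in 16-week kidneys (exact permutation p = 0.000304, adjusted 0.00365), and with them as a covariate 0 members were called by limma in that comparison, as without.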

How the data were processed

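The members, gene lists and tests were chosen with earlier results of these data known. The deposited values are log2 expression levels, 1 table per strain, made by the authors with RMA, per the submitters' processing notes; array type, probe definition and genome build are not given in the sources used here. Each table held 16475 genes and 64 control rows, and the table of the whole series held identical values (largest difference 0). The highest correlation of 2 arrays was 0.998, and no 2 were identical. Members were matched by symbol, and 16229 gene IDs to RefSeq (GRCm38.p6).

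The log2 values went into limma 3.58.1 (lmFit, then eBayes; R 4.3.3) as deposited. Each table had its own group-mean model, in which all groups of a strain share 1 spread. Calls were made at a Benjamini-Hochberg adjusted p under 0.05 over all genes. Strain differences used summed moderated variances with Satterthwaite degrees of freedom. Array controls were compared by exact two-sided permutation tests (scipy 1.17.1), adjusted over 24 tests. With arrays, sample number limits the precision.

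Sample values are given, in the nephritic and most onset comparisons, for Irf7, Stat2, Irf9, Ifnar1, Ifnar2, Usp18, Ifit1, Oasl2 and the 4 called members of largest change in each comparison, by range in groups of over 5 samples; any member may be named. Sp100 and Rsad2 were added after their values were seen. Of the pathway lists, the called genes of largest change were to be named, up to 4 per list and comparison; the text gives some of these and a few others, and 1 gene is not reported here. Alternatives were quantile normalization, median centring, array weights, a trended robust prior, the authors' flag for genes above their baseline (it covers 36, 37 and 36 of the 37 members), technical covariates, blocks, current RefSeq symbols, the median over members, only the compared groups, and samples left out singly or, at 16 weeks, 3 together.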

Additional observations from a re-analysis of the deposited data

Results flagged for a closer look

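Of 119 tests of 1 group for a sample far from the others (17 results, groups of 5 to 10 samples), 11 were positive, where chance gives about 1 in 20. Of these, 5 were 16-week NZB/W replicate 1, whose level stood above its group in Ifit1 (7.51), Oasl2 (7.42), Lgals3bp (10.39) and Oasl1 (7.32), and whose mean over the 37 members was 7.55. The others were the low Stat2 level of onset replicate 1 (6.21), the high Ifnar1 level of 36-week replicate 7 (8.82), the high Ifnar2 level of NZM2410 prenephritic replicate 2 (8.55) and the high Isg20 level of NZM2410 nephritic replicate 1 (7.26). NZM2410 prenephritic replicate 5 was low in Ifih1 (7.97) and Ifit2 (7.86).

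The fold changes of 2 members differed between the NZB/W and NZW/BXSB comparisons by a test of the difference itself, where strain and age cannot be told apart. The change between 36 and 16 weeks in NZB/W exceeded the nephritic change in NZW/BXSB by 0.59 for Sp100 and by 0.63 for Isg20.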

How the results depend on the processing

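The count of members that rose stayed within 1.5 times under every alternative at 36 against 16 weeks (24 to 34, 30 to 32 with samples left out) and in NZM2410 (23 to 31, 24 to 31 with samples left out). In NZW/BXSB, 25 became 14 with the Gapdh covariate and 11 with the replicate block, and 14 to 28 with samples left out. At onset, 9 became 4 with quantile normalization, 25 with array weights, 4 with the hybridization control covariate, 2 with the Gapdh covariate, 2 with the replicate block, 4 with title stems as random blocks, 22 with only the 2 groups in the fit, and 2 to 12 with samples left out. For 36 weeks over onset, 1 became 0 with quantile normalization, either covariate, the title stem or only the 2 groups, 8 with array weights, 6 with the replicate block, and 0 to 7 with samples left out (7 without onset replicate 5, 3 without 36-week replicate 3, 8 or 9, 4 without 36-week replicate 10). For 23-week non-proteinuric over 16-week kidneys, 0 became 2 with array weights and stayed 0 with samples left out. Members that differed between NZB/W and NZM2410, 0, became 6 with array weights and 1 with the hybridization covariate, and 0 to 2 with samples left out (1 without 36-week replicate 3, 5, 6, 7 or 10, 2 without NZM2410 nephritic replicate 4). Between NZB/W and NZW/BXSB, 2 became 1 with the hybridization and 0 with the Gapdh covariate, and 0 to 2 with samples left out (0 without 16-week replicate 4, 36-week replicate 4 or 5, prenephritic replicate 5 or 6, or nephritic replicate 4). Between NZM2410 and NZW/BXSB, 0 became 2 with array weights, and 0 to 2 with samples left out (2 without NZM2410 nephritic replicate 4). With only 2 groups in the fit, the samples of the other NZB/W groups do not enter the shared spread. Why the counts moved was not tested.

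Of 1509 alternatives to 58 fold changes of named members, 1375 kept direction and side of the threshold, 82 lost and 27 gained a call, and in 25, over 8 results, the sign changed with no call in either setting (Ifnar1, Irf7, Irf9, Oasl2, Stat2 and Usp18 at 23 over 16 weeks, Ifnar2 at 36 weeks over onset and in NZM2410). Replicate numbers did not pair the samples: same-numbered samples correlated from -0.443 to 0.431, and no comparison had every pair over 0.1. The score differences moved by less than 1 SD throughout. Sample numbers limit the small comparisons, and RMA levels are relative.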
